A study of Drosophila melanogaster with 8 samples.

Results

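The cytosolic ribosome of Drosophila melanogaster is built from ribosomal RNA and a set of ribosomal proteins, each named RpL for the large subunit or RpS for the small subunit. These genes were taken from the whole expression table by name, as every gene whose symbol starts with RpL or RpS followed by a digit or P, together with stubarista (sta), the symbol that the table uses for the small-subunit protein SA. This gave 91 genes of 19299 in the table. Of these, 80 were standard ribosomal protein genes and 11 were paralogs, meaning second copies or genes named "like" that were set against the standard gene of the same number. The members RpS14a and RpS14b, which lie next to each other, were both counted as standard genes. No cut-off on expression was used to choose the 91 genes, but the members and paralogs were chosen with earlier results of these data known. Some genes described singly below were picked by their level, their p-value or after their values were seen. RpL10Aa and RpS28a were not analysed here.

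The samples were intestines of wild-type female flies aged 40 to 50 days, with 4 samples from flies given quercetin (Que), a plant flavonol, at 10 µM in the food and 4 samples from flies given the solvent dimethyl sulfoxide (DMSO). Many midguts of mated females were pooled for each sample, and the labels give the genotype of both groups as WT and no further. The comparison asks which messages of the aged gut differ when quercetin is fed. Because nothing in the labels ties each sample to a separate fly culture, the p-values measure the spread between these samples.

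Ribosomal protein genes are transcribed in every growing cell, and their messages are among the most abundant in a tissue. In flies, losing 1 of the 2 copies of many of them slows growth and shortens the bristles, which is known as the Minute phenotype. The proteins of the stalk, RpLP0, RpLP1 and RpLP2, recruit elongation factors to the large subunit. In the gut, intestinal stem cells and their daughters divide and renew the digestive enterocytes, and they need new ribosomes to do so.

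Each library held between 27253832 and 35619139 reads assigned to genes, and Que 3 was the shallowest. Values were reads per kilobase of gene and per 1000000 assigned reads (RPKM), and 3 reads in a library correspond to between 0.0842 and 0.11 per 1000000 reads. Reads could be recovered from them as whole numbers for 100% of the values at a tolerance of 0.01. The tissue label fitted its markers, since 7 enterocyte genes summed to 8929 to 10633 RPKM in Que samples and 7259 to 9339 RPKM in DMSO samples. Ovary markers, of which 12 of 15 were in the table, summed to 1.89 to 2.79 RPKM in Que samples and 2.25 to 5.88 RPKM in DMSO samples. The 9 muscle genes summed to 933 to 1550 RPKM in Que samples and 887 to 1256 RPKM in DMSO samples. The 6 progenitor genes summed to 36.6 to 61.4 RPKM in Que samples and 50.0 to 57.7 RPKM in DMSO samples. In a bulk sample, fewer cells of a type and less RNA per cell cannot be told apart.

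The ribosomal protein genes took a few percent of all reads. Their share was 3.87, 3.27, 4.2 and 4.0% in Que samples 1 to 4, against 3.72, 3.23, 3.44 and 3.39% in DMSO samples 1 to 4. Que 2 and DMSO 2 were the lowest samples of their groups, Que 1, Que 3 and Que 4 lay above every DMSO sample, and the groups overlapped through Que 2. The large subunit took 2.08 to 2.60% of reads in Que samples and 2.07 to 2.44% in DMSO samples. The small subunit took 1.19 to 1.60% in Que samples and 1.16 to 1.29% in DMSO samples. Paralogs were a minor part, with 0.0222 to 0.0337% of reads in Que samples and 0.0223 to 0.0262% in DMSO samples.

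Levels of the standard genes spanned a wide range. The highest mean was 289-fold above the lowest. On the RPKM scale, 10 genes averaged over 1000, 66 standard genes lay between 100 and 1000, and 4 standard genes lay under 100. Of the 80 standard genes, 77 were among the 1000 most abundant genes of the table and 11 among the first 100. The 5 most abundant genes held 22.5% of all reads on the 91 genes. No standard gene rested on fewer than 296 reads in any library, and the deepest value rested on 79517 reads.

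RpL23, a large-subunit protein, was the most abundant member in all 8 samples. Its level was 4665, 3333, 4023 and 4136 RPKM in Que samples 1 to 4, against 4098, 3589, 3777 and 3470 RPKM in DMSO samples 1 to 4. Que 1 was the highest sample and Que 2 the lowest, so the Que samples spanned the whole DMSO range. RpL27A, another large-subunit protein, came next with 3372 ± 402 RPKM in Que samples and 3202 ± 255 RPKM in DMSO samples (SD, n = 4 each). The third, RpS30, is made as a fusion to a ubiquitin-like protein that is cut off, and it averaged 2704 ± 391 RPKM in Que samples and 2507 ± 187 RPKM in DMSO samples. RpLP2 had 2886, 1868, 2559 and 2495 RPKM in Que samples, against 2463, 1881, 2116 and 2036 RPKM in DMSO samples. The ranges over samples of RpL23 and RpL27A overlapped, as did those of RpL27A and RpS30 and those of RpS30 and RpLP2. RpL21, next in the order, did not overlap with RpLP2, since its level was 1297 to 1772 RPKM in Que samples and 1257 to 1527 RPKM in DMSO samples.

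At the other end stood RpL38, a small protein of the large subunit. Its level was 15.9, 13.8, 10.7 and 14.7 RPKM in Que samples and 14.4, 11, 14.0 and 13.3 RPKM in DMSO samples. All 8 of these values lay below those of every other standard gene. RpS21 averaged 77.2 ± 13.4 RPKM in Que samples and 72.3 ± 15.4 RPKM in DMSO samples, and RpL22, an RNA-binding protein of the large subunit, averaged 84.1 ± 24.4 RPKM in Que samples and 68.8 ± 10.1 RPKM in DMSO samples. RpL37A averaged 99.7 ± 34.5 RPKM in Que samples and 97.0 ± 26.8 RPKM in DMSO samples. RpL39, which lines the exit tunnel for the nascent chain, averaged 111 ± 22.6 RPKM in Que samples and 97.8 ± 23.9 RPKM in DMSO samples. The ranges of these 4 genes overlapped with each other. RPKM divides by the gene length of the table, which adds up the exons of all transcripts, and with the median transcript length instead the ranks of the 80 genes correlated with those of the table at a Spearman's rho of 0.96, across genes.

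**Figure D1:**
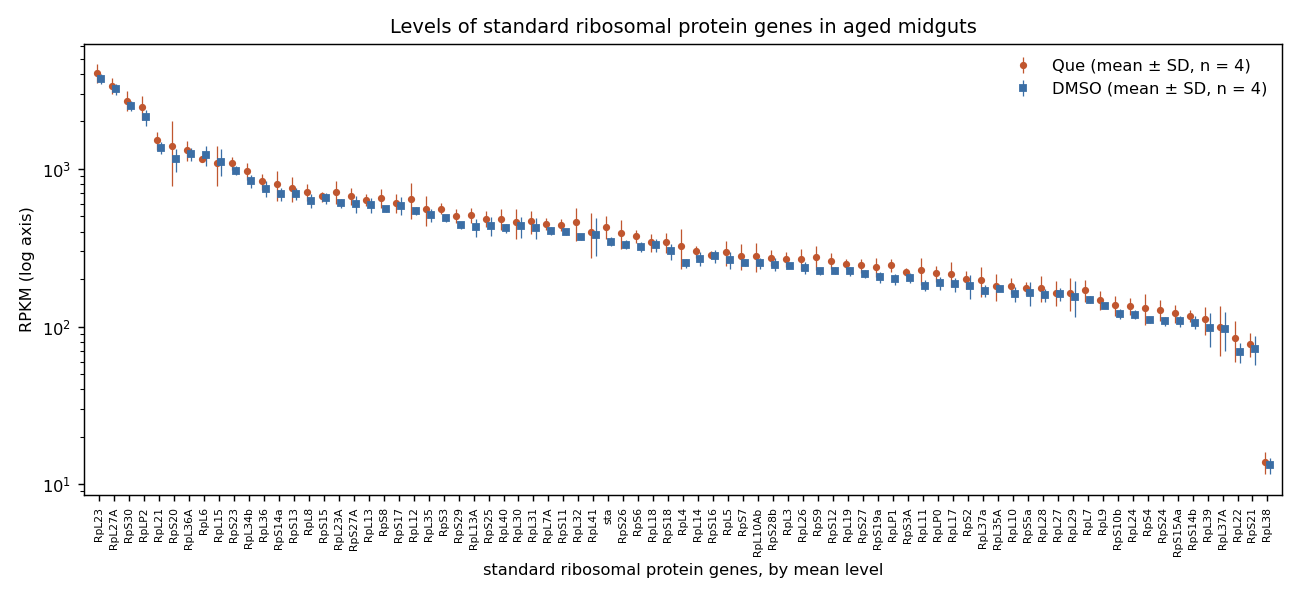
Mean level of 79 of the 80 standard ribosomal protein genes, in RPKM on a log axis, for Que samples (circles) and DMSO samples (squares), with bars for the SD of 4 samples each and genes ordered by mean level. RpL23 stands at the top and RpL38 lies apart at the bottom, and the Que and DMSO means of each gene sit close together across the whole range.

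Some of these values share reads with neighbouring genes. Exons of 12 members, 10 of them standard, overlapped another gene over at least 10% of their length. RpL7-like was overlapped over 98.8% by CG34164 on the same strand, so those genes cannot be told apart. RpS9 was overlapped over 50.3% by an antisense gene, CR45874, that was listed at nearly the same level. The strand setting of the counting is not given in the sources used here, so reads of a gene and of its antisense partner may be mixed.

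The paralogs made up a group with clear expression and a group at or near 0. In the families of RpL7, RpL24 and RpLP0, the gene named "like" is the fly counterpart of a factor that in yeast binds the assembling large subunit in place of, or ahead of, the ribosomal protein. RpL24-like was the most abundant paralog. It had 165, 126, 197 and 163 RPKM in Que samples, against 152, 130, 146 and 141 RPKM in DMSO samples. RpL24 itself had 151, 111, 138 and 139 RPKM in Que samples, against 131, 114, 115 and 115 RPKM in DMSO samples. RpL24-like was thus above RpL24 in all 8 samples, and for both genes the Que samples spanned the DMSO range. Its share of the summed RPKM of the family was 54.6 ± 2.96% in Que samples and 54.4 ± 1.16% in DMSO samples (SD, n = 4 each, p = 0.914, exact two-sided permutation test). Of the RpL24 exons, 21.6% overlapped with CG7099.

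RpLP0 was the more abundant gene of its family, with 221, 181, 230 and 240 RPKM in Que samples and 215, 174, 182 and 185 RPKM in DMSO samples. RpLP0-like had 98.4, 71.8, 119 and 95 RPKM in Que samples, against 87.2, 72.7, 90.3 and 81.6 RPKM in DMSO samples. Both genes were lowest in replicate 2 of each group. The share of RpLP0-like was 30.4 ± 2.77% in Que samples and 30.5 ± 1.92% in DMSO samples (n = 4 each, p = 0.943, exact permutation test). RpL7 had 148, 146, 203 and 182 RPKM in Que samples and 146, 140, 157 and 150 RPKM in DMSO samples. RpL7-like stood at 15.2, 11.4, 11.6 and 12.2 RPKM in Que samples and at 14.7, 10.2, 9.04 and 11.1 RPKM in DMSO samples, with replicate 1 highest in both groups. Its share was 7.06 ± 1.66% in Que samples and 7.06 ± 1.52% in DMSO samples (n = 4 each, p = 1.0, exact permutation test), and it includes the reads shared with CG34164.

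Other families hold near copies of 1 protein. RpL34b was 16.9-fold above RpL34a over all samples. RpL34b had 1007, 785, 1023 and 1054 RPKM in Que samples, against 953, 772, 808 and 811 RPKM in DMSO samples. RpL34a had 47.2, 49.6, 70 and 60.5 RPKM in Que samples, against 46.3, 49.1, 51.8 and 51.4 RPKM in DMSO samples. Que 3 and Que 4 were above every DMSO sample for both genes, and Que 1 also for RpL34b. The share of RpL34a was 5.56 ± 0.825% in Que samples and 5.65 ± 0.679% in DMSO samples (n = 4 each, p = 0.8, exact permutation test).

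RpS14a and RpS14b lie 220 bases apart on the X chromosome, at positions 7933742 to 7934677 and 7934898 to 7935792. RpS14a had 735, 585, 972 and 897 RPKM in Que samples, against 700, 620, 772 and 660 RPKM in DMSO samples. RpS14b had 122, 104, 126 and 114 RPKM in Que samples, against 121, 101, 99.4 and 103 RPKM in DMSO samples. The neighbours thus differed 6.67-fold over all samples, with RpS14a higher in each. RpS14b made up 13.0 ± 1.93% of the family in Que samples and 13.4 ± 1.43% in DMSO samples (n = 4 each, p = 0.886, exact permutation test). How reads that match several copies were treated is not given in the sources used here, so the split of reads within such families is uncertain.

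RpS15Aa was 15.2-fold above RpS15Ab. It had 142, 105, 121 and 114 RPKM in Que samples and 121, 101, 105 and 106 RPKM in DMSO samples, and RpS15Ab had 8.78, 6.33, 8.31 and 6.99 RPKM in Que samples and 7.78, 7.29, 7.20 and 7.51 RPKM in DMSO samples. The share of RpS15Ab was 5.84, 5.66, 6.41 and 5.80% in Que samples, against 6.03, 6.75, 6.42 and 6.63% in DMSO samples. All Que samples but Que 3 lay below every DMSO sample, and Que 3 lay within the DMSO range. The means were 5.93 ± 0.330% in Que samples and 6.46 ± 0.316% in DMSO samples (n = 4 each, p = 0.0571, adjusted p = 0.4 over the 7 families tested, exact permutation test). This was the lowest p of the 7 families, and the test allows none below 0.0286. RpS15Ab rested on 158 to 200 reads per library.

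RpS5b, which is known in flies for its expression in the ovary, was 295-fold below RpS5a. It had 0.502, 0.580, 0.733 and 0.898 RPKM in Que samples, against 0.780, 0.148, 0.472 and 0.482 RPKM in DMSO samples. These values rest on 5 to 27 reads, and the groups overlapped because DMSO 1 was above all Que samples but Que 4. The share of RpS5b in its family was 0.391 ± 0.109% in Que samples and 0.275 ± 0.120% in DMSO samples (n = 4 each, p = 0.257, adjusted p = 0.9, exact permutation test). RpS5a had 198, 156, 168 and 176 RPKM in Que samples, against 207, 145, 156 and 149 RPKM in DMSO samples, and replicate 1 was the highest of both groups.

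The remaining 5 paralogs were at or under 3 reads in every library and were not tested. RpL22-like and RpS19b had 6 reads each over all 8 libraries, and RpL37b, RpS10a and RpS28-like had 2 each. RpL22-like, RpS19b, RpS10a and RpL37b are known in flies for expression in the germline. The first genes of these families were well expressed. RpS19a averaged 239 ± 32.1 RPKM in Que samples and 206 ± 16.0 RPKM in DMSO samples, and RpS28b averaged 273 ± 32.6 RPKM in Que samples and 247 ± 23.0 RPKM in DMSO samples. RpL37a averaged 196 ± 42.9 RPKM in Que samples and 168 ± 14.6 RPKM in DMSO samples, and RpS10b averaged 136 ± 19.3 RPKM in Que samples and 120 ± 8.33 RPKM in DMSO samples. The Que and DMSO values overlapped for all 4 of these genes.

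**Figure D2:**
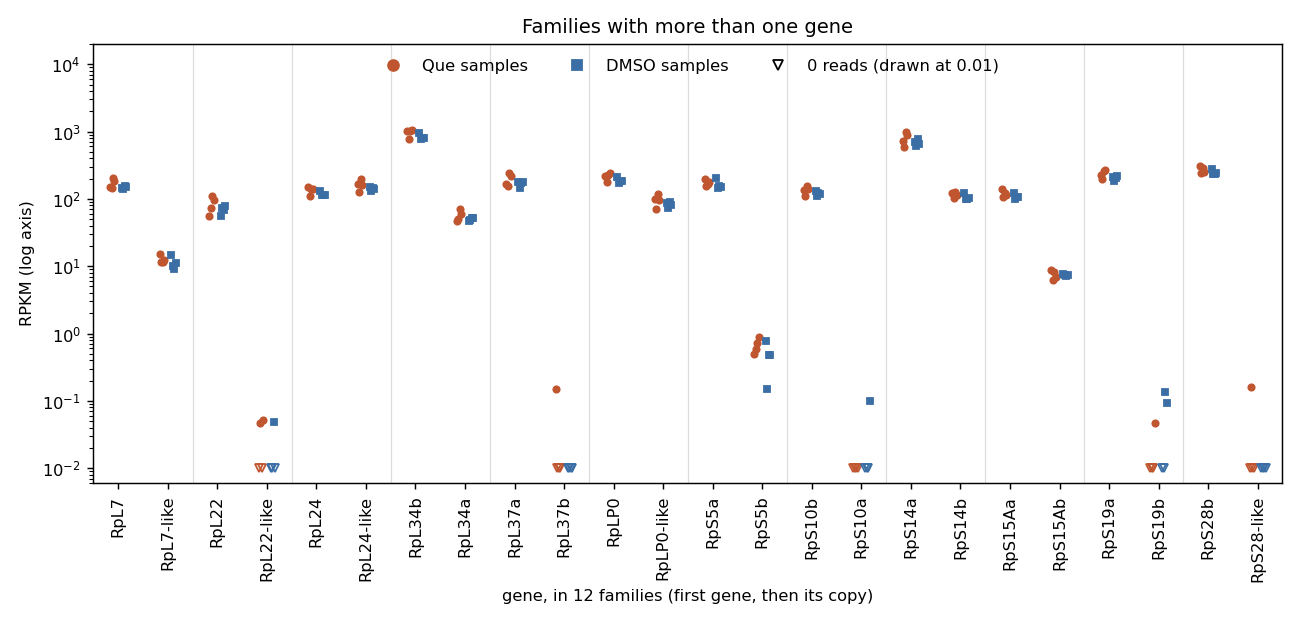
RPKM on a log axis of each gene in the 12 families with more than 1 gene, where each point is a sample, circles are Que and squares are DMSO, and open triangles at 0.01 stand for libraries without a read. RpL24-like lies level with RpL24, RpL34a, RpS14b and RpS15Ab lie well below their partners, and 5 paralogs lie at or near 0.

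No ribosomal protein gene passed the test between Que and DMSO. A mean of 0.1 RPKM or more was reached by 13249 genes, of which 86 were members, namely all 80 standard genes and 6 paralogs. With limma on log2(RPKM + 0.1), adjusted over all genes tested, the lowest adjusted p of a member was 0.946 and 0.0% of all genes were under 0.05. At an unadjusted p under 0.05, 2 members were higher with Que, RpLP1 and sta, against 1.68% of all genes tested, and none was lower, against 1.93% of all genes. A voom fit on the recovered reads also gave 2 and 0. The count of 2 moved with single libraries. It was 26 without Que 2 (3.65% of all genes), 6 without Que 1 (2.12% of all genes) and 5 without DMSO 1 (2.32% of all genes). It was 1 without Que 3, DMSO 2 or DMSO 4, and 0 without Que 4 or DMSO 3, where the shares of all genes lay between 1.21 and 1.83%.

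Point estimates of the members lay mostly on the higher side with Que, and they were small. The median log2 fold change of the standard genes was 0.16, with a range of -0.06 to 0.32, while the median of all genes tested was -0.02. Of the 80 standard genes, 78 had a higher mean log2 value with Que, and 47.0% of all genes tested did. Without Que 2 the median of the standard genes was 0.24, and without Que 3 it was 0.12. These genes share the same 8 libraries and vary together, so they are not independent observations. A typical standard error of a member was 0.13. Lists of marker genes, of cells of the gut itself and of other tissues, had medians on both sides of 0. The 9 muscle genes had a median log2 fold change of 0.16 with 8 higher, the 7 enterocyte genes 0.12 with 4 higher, the 6 progenitor genes -0.19 with 2 higher and the 5 Malpighian tubule genes -0.73 with 1 higher. Nearer to 0 were the 7 enteroendocrine genes at 0.04 with 5 higher and the 6 fat body genes at -0.05 with 1 higher. The 5 ovary genes tested had a median of -0.12 with 1 higher, and the 1 testis gene tested was at -0.25. The part of these cell types and tissues in the values of the ribosomal protein genes was not tested.

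The subunits gave similar estimates, and the difference between them was not tested. The 47 large-subunit genes had a median log2 fold change of 0.15, with 45 higher, and the 33 small-subunit genes had a median of 0.17, with 33 higher. The 6 paralogs tested had a median of 0.18, which was 0.08 without Que 3, and all 6 were on the higher side. Among the main chromosome arms the median of the standard genes lay between 0.14 on 2L and 0.18 on 3L and 3R. Leaving out the 10 standard genes with overlapping neighbours gave a median of 0.16 again.

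**Figure D3:**
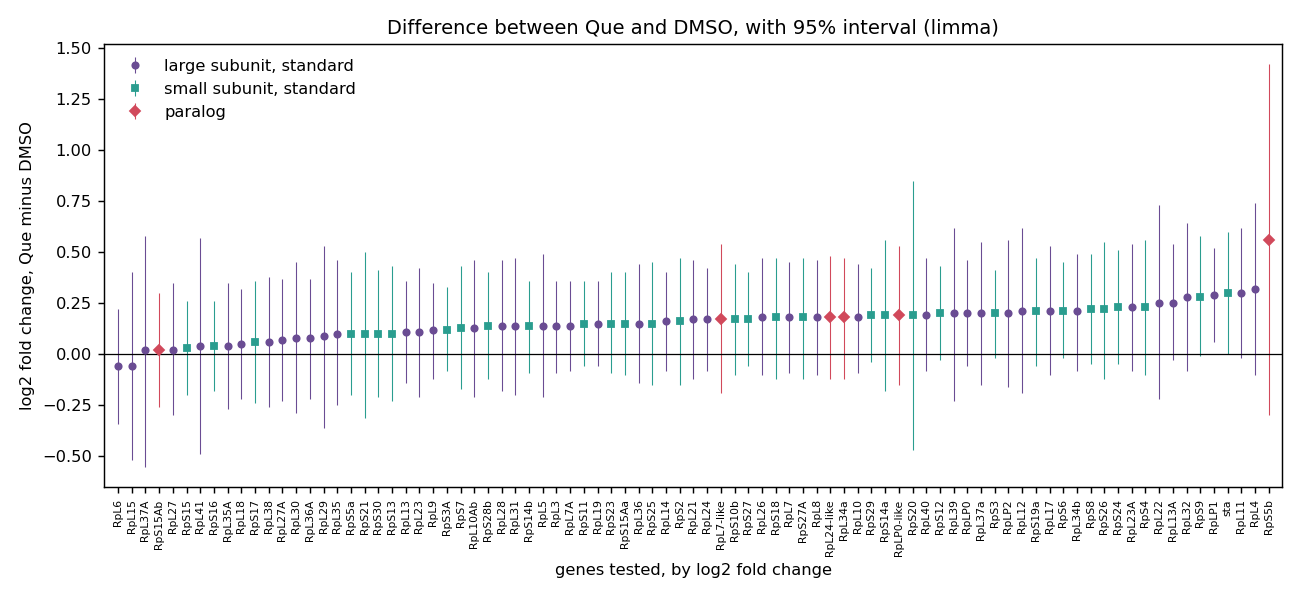
Log2 fold change (Que minus DMSO, on the log2(RPKM + 0.1) scale) of 85 of the 86 genes tested, with 95% intervals from limma, ordered by size and marked as large-subunit genes (circles), small-subunit genes (squares) and paralogs (diamonds). Estimates run from -0.06 to 0.32 for standard genes, most intervals include 0, and RpS5b has the widest interval.

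Among the stalk proteins, RpLP1 had the lowest unadjusted p of all members. The gene (Dmel_CG4087) lies on chromosome arm 2L from 419952 to 420864 on the plus strand in BDGP6. It had 231, 218, 267 and 259 RPKM in Que samples, against 220, 195, 183 and 197 RPKM in DMSO samples. Only DMSO 1 lay above the lowest Que sample, Que 2, and the other values were apart. The means were 244 ± 23.0 RPKM in Que samples and 199 ± 15.5 RPKM in DMSO samples (SD, n = 4 each). The log2 fold change was 0.29 with a standard error of 0.10 and a 95% interval of 0.06 to 0.52 (limma p = 0.0177, adjusted p = 0.946, exact permutation p = 0.0571). RpLP0 and RpLP2, which share the stalk with it, each had a log2 fold change of 0.20, with standard errors of 0.11 and 0.16, and for both the groups overlapped. Without Que 1 the estimate for RpLP2 was 0.11, and without Que 2 it was 0.32.

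The gene sta (Dmel_CG14792, X chromosome, 1481797 to 1483413, minus strand) encodes the protein of the small subunit that is the counterpart of the human laminin receptor. It had 417, 334, 488 and 476 RPKM in Que samples, against 360, 312, 352 and 355 RPKM in DMSO samples. Que 2 lay within the DMSO range, and the other Que samples lay above it. The log2 fold change was 0.30 with a standard error of 0.13 (limma p = 0.0479, adjusted p = 0.946, exact permutation p = 0.114).

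RpS3 was the only member whose groups did not overlap, with all Que samples above all DMSO samples, as in 0.876% of all genes tested. Its protein lies at the messenger RNA entry site of the small subunit and has also been studied for a role in DNA repair. The gene (Dmel_CG6779) lies on 3R from 23358812 to 23360207. It had 541, 511, 615 and 570 RPKM in Que samples, against 510, 465, 467 and 504 RPKM in DMSO samples. The lowest Que sample, Que 2, was only just above the highest DMSO sample, DMSO 1. The log2 fold change was 0.20 with a standard error of 0.10 and an interval of -0.02 to 0.41 (limma p = 0.066, limma adjusted p = 0.946, exact permutation p = 0.0286). That permutation p is the smallest that 4 against 4 samples allow, before any adjustment over the members. No member had all Que samples below all DMSO samples, against 1.26% of all genes.

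For 26 of the 86 members at least 3 Que samples lay above every DMSO sample, against 6.84% of all genes. RpS9 and RpL11, which were next in order of p, were of this kind. RpS9 had 270, 214, 326 and 290 RPKM in Que samples, against 235, 209, 225 and 225 RPKM in DMSO samples (log2 fold change 0.28, standard error 0.13, adjusted p = 0.946 in limma). RpL11, a protein that binds the 5S ribosomal RNA together with RpL5, had 204, 179, 278 and 246 RPKM in Que samples, against 189, 161, 192 and 185 RPKM in DMSO samples (log2 fold change 0.30, standard error 0.14, adjusted p = 0.946 in limma). In both genes Que 2 lay within the DMSO range and the other Que samples lay above it, and without Que 3 the estimate for RpL11 was 0.20. RpS9 shares its exons with an antisense gene, as said.

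RpL32 (Dmel_CG7939, 3R, 30045229 to 30046161, minus strand), also called Rp49, is widely used in flies as the reference gene of quantitative PCR, and in this study as well. It had 382, 356, 592 and 501 RPKM in Que samples, against 362, 352, 381 and 382 RPKM in DMSO samples. DMSO samples lay close together, while Que 3 and Que 4 lay well above them and Que 1 and Que 2 lay at their level. The means were 458 ± 110 RPKM in Que samples and 369 ± 15.2 RPKM in DMSO samples. The log2 fold change was 0.28 with a standard error of 0.16 and an interval of -0.08 to 0.64 (limma p = 0.114, adjusted p = 0.946, exact permutation p = 0.229). Without Que 3 the estimate was 0.15, and without Que 2 it was 0.39.

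Only RpL6 and RpL15 had a lower mean log2 value with Que. RpL6 had 1201, 1159, 1084 and 1196 RPKM in Que samples, against 1449, 1229, 1146 and 1041 RPKM in DMSO samples. Its log2 fold change was -0.06 with a standard error of 0.12, and the Que samples lay inside the DMSO range. RpL15 had 1537, 986, 852 and 951 RPKM in Que samples, against 1431, 1050, 1012 and 952 RPKM in DMSO samples. Replicate 1 stood far above the rest in both groups, and the log2 fold change was -0.06 with a standard error of 0.20. Both estimates took the other sign when DMSO 1 was left out, and that of RpL15 also without Que 3.

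Some further members were looked up for their known roles after the values were seen. RpS6, the target of S6 kinase, had 351, 333, 402 and 406 RPKM in Que samples, against 354, 300, 305 and 324 RPKM in DMSO samples (log2 fold change 0.21, standard error 0.10, adjusted p = 0.946 in limma). RpL40 and RpS27A are made as fusions to ubiquitin. RpL40 had 426, 429, 581 and 489 RPKM in Que samples, against 440, 386, 403 and 447 RPKM in DMSO samples, and RpS27A had 769, 574, 714 and 644 RPKM in Que samples, against 697, 550, 612 and 531 RPKM in DMSO samples. In RpS12, which acts in fly cell competition upstream of Xrp1, values were 254, 225, 292 and 276 RPKM in Que samples, against 239, 215, 221 and 231 RPKM in DMSO samples. In each of these genes the Que and DMSO samples overlapped.

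Many of the standard genes moved together from sample to sample, but not all in the same direction. Each gene was set against its own mean over the 8 samples on the log2 scale. The median deviation of the 80 genes was 0.09, -0.11, 0.19 and 0.15 in Que samples 1 to 4, against 0.04, -0.17, -0.11 and -0.09 in DMSO samples 1 to 4. Que 2 lay among the DMSO samples, DMSO 1 lay nearest to the other Que samples, and so the groups overlapped. Of the 80 genes, 55, 5, 68 and 70 lay above their own mean in the Que samples, against 47, 4, 10 and 9 in the DMSO samples. The median coefficient of variation of the standard genes was 14.3% over Que samples and 8.91% over DMSO samples, and over all genes tested it was 21.2% over Que samples and 15.8% over DMSO samples.

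**Figure D4:**
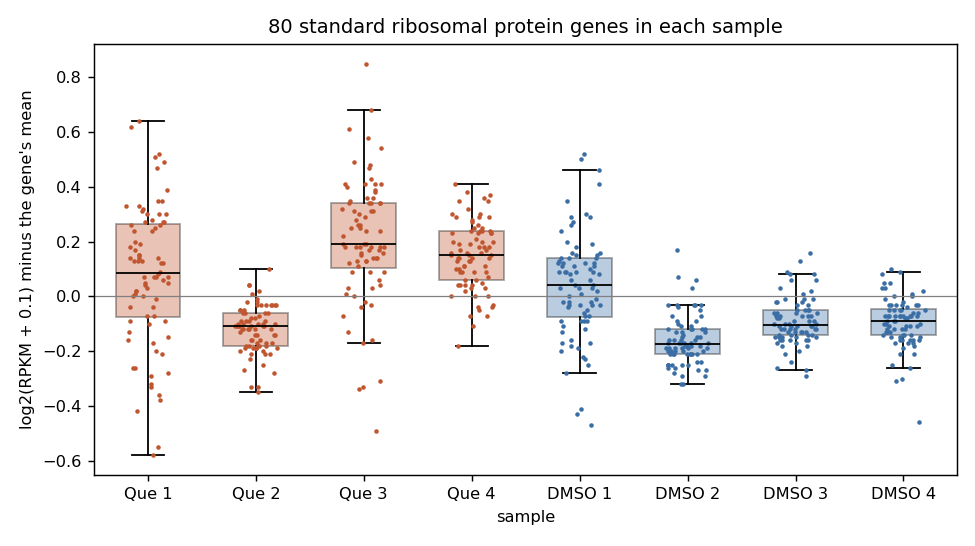
Deviation of each of the 80 standard genes from its own mean, in log2(RPKM + 0.1), in each Que sample and each DMSO sample, with points for genes and boxes for the quartiles and median. Que 3 and Que 4 lie highest with medians of 0.19 and 0.15, Que 2 lies at -0.11 among the DMSO samples, and the box of Que 1 is the tallest.

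The relation of level to gene length also differed between libraries. Over all genes tested, Spearman's rho of the deviation with gene length was -0.17, 0.26, -0.11 and 0.01 in Que samples, against -0.06, 0.30, 0.02 and 0.11 in DMSO samples. Que 2 and DMSO 2, in which the short ribosomal protein genes were lowest, had the highest values. With the length trend of each sample removed, the median deviation of the standard genes was 0.06, -0.02, 0.17 and 0.11 in Que samples, against 0.01, -0.04, -0.14 and -0.09 in DMSO samples. As before, all Que samples but Que 2 lay above every DMSO sample, the median log2 fold change was 0.14, and 75 of 80 genes were on the higher side. The part of RNA quality or of other cell types in these deviations was not tested.

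Not every gene was high in the same library. Among the standard genes, the highest of the 8 samples was Que 3 for 38 genes, Que 1 for 26, Que 4 for 11 and DMSO 1 for 5. Replicate 1 was the highest sample in both groups for 29 of the 80 standard genes, against 15.7% of all genes tested. Over the 85 members with a mean of at least 5 RPKM, the first 2 principal components held 51.5% and 40.0% of the variance between samples. Genes with the largest deviations in Que 1 and in Que 3 follow, and they were picked after their values were seen. Their relation to the components was not tested.

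RpL37A had 149, 91.7, 67.7 and 90.7 RPKM in Que samples, against 136, 90.3, 78.8 and 82.2 RPKM in DMSO samples. RpL41, which encodes the shortest ribosomal protein, had 583, 356, 299 and 349 RPKM in Que samples, against 535, 349, 339 and 305 RPKM in DMSO samples. RpL29 had 223, 144, 139 and 151 RPKM in Que samples, against 215, 136, 139 and 131 RPKM in DMSO samples. Replicate 1 stood far above the other samples in both groups for all 3 genes. The other Que and DMSO values were mixed for RpL37A and RpL41, while for RpL29 the other Que values lay at or above the other DMSO values. The deviations of RpL37A in Que 1 and DMSO 1 were 0.64 and 0.52 on the log2 scale.

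RpS20, a small-subunit protein, showed the opposite order. It had 812, 1005, 2196 and 1578 RPKM in Que samples, against 912, 1095, 1353 and 1238 RPKM in DMSO samples, with the lowest value of each group in replicate 1. RpL4 had 258, 237, 429 and 375 RPKM in Que samples, against 246, 234, 269 and 260 RPKM in DMSO samples, and had the highest log2 fold change of the standard genes at 0.32 with a standard error of 0.19. In both genes Que 3 and Que 4 stood above the other 6 samples, while Que 1 and Que 2 lay below the highest DMSO sample. RpL22 was of the same kind, with 55.8, 73.7, 112 and 95.2 RPKM in Que samples and 55.4, 72.7, 67.8 and 79.4 RPKM in DMSO samples.

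Of the 8 standard genes taken for the largest deviation in Que 1, 8 were of the large subunit, with a median coding length of 304.5 bases. The last of them, RpLP2, was level with RpS18 of the small subunit, both at 0.35, so the 8 rest on a tie. Among all 80 standard genes, 47 were of the large subunit. Of the 8 standard genes with the largest deviation in Que 3, 6 were of the large subunit, with a median coding length of 541.5 bases, and no gene was in both sets. Across the 85 genes, which share the same libraries, the rho of coding length was -0.24 with the deviation in Que 1 and 0.21 with that in Que 3. Mean level had a rho of 0.02 with the deviation in Que 1 and -0.07 with that in Que 3.

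**Figure D5:**
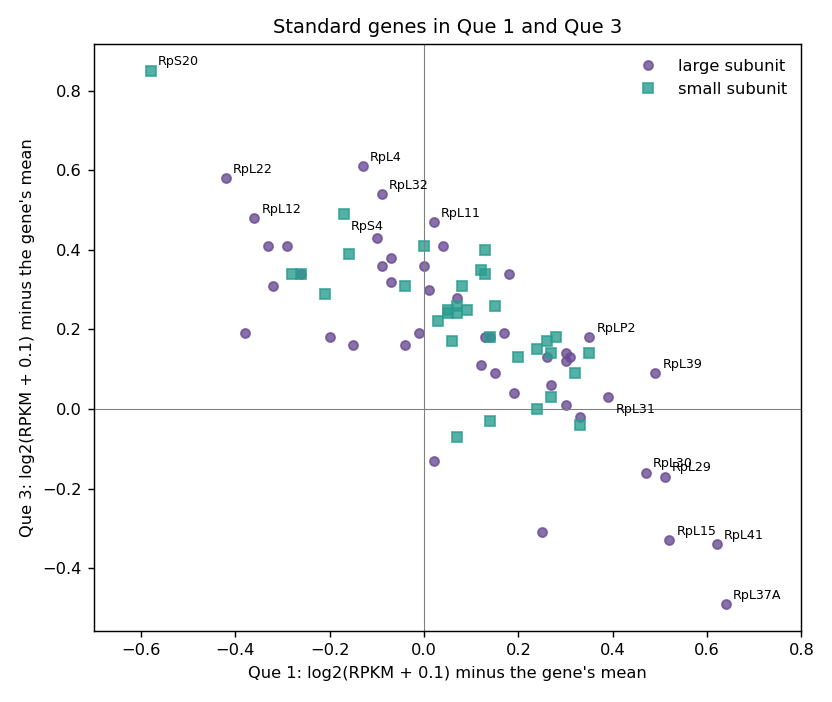
Deviation of 79 of the 80 standard genes, each from its own mean, in Que 3 (y axis) against Que 1 (x axis), both in log2(RPKM + 0.1), with circles for the large and squares for the small subunit. RpL37A and RpL41 lie at the lower right, high in Que 1 and low in Que 3, and RpS20 lies at the upper left.

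The genes share features that the choice by name did not use. Standard ribosomal protein genes had a median coding length of 465 bases and 3 exons, against 1305 bases and 4 exons in the 10059 protein-coding genes tested and matched to the BDGP6.54 annotation. Their median 5′ untranslated region was 68.5 bases long, against 139 bases, and 76.2% of them had one under 100 bases, against 34.8%. Small nucleolar RNA genes, which guide the modification of ribosomal RNA, lay within 29 of the 80 standard genes (36.2%), against 84 of the 10059 (0.835%). RpS5a held 14 of the 76 such RNAs, RpS7 held 7, and RpS16 and RpL28 held 5 each. None of the 11 paralogs and none of the 73 mitochondrial ribosomal protein genes held one. Of the paralogs, 3 had a single exon (27.3%), against 1 of the standard genes (1.25%). The standard genes lay on all chromosomes, with 15 on X, 17 on 2L, 17 on 2R, 14 on 3L, 16 on 3R and 1, RpS3A, on chromosome 4.

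Mitochondrial ribosomal proteins, which build a separate ribosome from nuclear genes, had a median log2 fold change of 0.09. On the higher side were 60 of 73 (82.2%), against 47.0% of all genes tested. At an unadjusted p under 0.05, 1 of the 73 was higher, against 1.68% of all genes. Their median deviation was 0.11, -0.15, 0.24 and 0.01 in Que samples, against 0.05, -0.21, 0.03 and -0.05 in DMSO samples. Replicate 2 was again the lowest sample of each group, and the groups overlapped.

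Factors that make ribosomes did not stand on the higher side as the ribosomal proteins did. The 24 biogenesis genes had a median log2 fold change of 0.01, with 13 higher, and none was under an unadjusted p of 0.05 in either direction. Nop56, a core protein of box C/D particles, averaged 66.3 RPKM in Que samples and 57.7 RPKM in DMSO samples, with a log2 fold change of 0.18. Nopp140, a nucleolar phosphoprotein, had the lowest log2 fold change of the list at -0.28, and NHP2, a protein of box H/ACA particles, had the highest at 0.27. The difference between this list and the ribosomal protein genes was not tested.

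Regulators of ribosomal protein genes and their messages had a median log2 fold change of -0.09, with 2 of 11 higher. Myc, which drives ribosome production, averaged 32.1 RPKM in Que samples and 32.9 RPKM in DMSO samples. M1BP, a transcription factor that binds promoters of ribosomal protein genes, averaged 36.9 RPKM in Que samples and 39.2 RPKM in DMSO samples. Xrp1, which is induced in flies that lack a copy of a ribosomal protein gene, averaged 623 RPKM in Que samples and 692 RPKM in DMSO samples, with a log2 fold change of -0.16. Thor, the translation inhibitor 4E-BP, averaged 251 RPKM in Que samples and 236 RPKM in DMSO samples. The gene foxo, the transcription factor restrained by insulin signalling, averaged 15.6 RPKM in Que samples and 12.6 RPKM in DMSO samples, with a log2 fold change of 0.29, and was the only gene of the list under an unadjusted p of 0.05. In limma its unadjusted p was 0.043, and no gene of the list had an adjusted p below 0.946.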

How the data were processed

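The deposited table holds RPKM values for 8 midgut libraries, which the authors made from stranded mRNA libraries after collapsing duplicate reads and mapping to the ISO1 genome. The submitters' processing notes name Trimmomatic 0.36, STAR 2.5.3a and featureCounts. Annotation release, strand setting and treatment of reads with several matches are not given in the sources used here. Reads were recovered from RPKM, gene length and library total, and a library had 27253832 to 35619139 of them. More reads give a closer value, and limits at 3 reads cover counting error only.

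The 13249 genes that averaged 0.1 RPKM or more were tested with limma 3.58.1 in R 4.3.3 on log2(RPKM + 0.1), two-sided, with an intensity trend and Benjamini-Hochberg adjustment over all genes tested. A fold change on this scale understates the change of low genes. Single members and the shares of paralogs were compared with exact two-sided permutation tests (70 arrangements, Python 3.11.15 with NumPy 2.4.6). Spearman's rho was computed with SciPy 1.17.1. Paralog shares were adjusted over 7 families. Principal components were computed on centred log2 values. The limma script was tested on simulated reads in which 200 genes were changed 2-fold. At an adjusted p under 0.05 in limma, 96.5% of them were found with a dispersion (spread between samples) of 0.01. With a dispersion of 0.04, 27.5% were found, so a gene that does not pass may still differ. False calls numbered 8 and 6.

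Genes named were all members of families with a copy, RpL32, the stalk genes, the 5 highest members, the 5 lowest standard members and the 5 members of lowest p in each direction, of which the lower direction held 2. Others were named after their values were seen. The members and lists were chosen with earlier results of these data known. Alternatives were other pseudocounts (1 and 0.01), filters, scalings, length correction, sample weights, a replicate block, voom and leaving out each sample. Leaving out replicate number 1 of both groups and levels by median transcript length were added after seeing the data. All 91 members matched the BDGP6.54 annotation with the same start and end. No genome was used here. The counts and medians cover all members, but 1 standard gene is not reported here by name and is left out of the plots that name or place single genes.

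Marker lists whose sums are not given above were enteroendocrine cells (7 genes, 840 to 1230 RPKM in Que samples and 835 to 1092 RPKM in DMSO samples), testis (6 genes, 1.63 to 2.45 RPKM in Que samples and 1.80 to 2.96 RPKM in DMSO samples), fat body (6 genes, 38.4 to 79.3 RPKM in Que samples and 41.6 to 60.7 RPKM in DMSO samples) and Malpighian tubules (5 genes, 13.0 to 24.0 RPKM in Que samples and 16.8 to 26.2 RPKM in DMSO samples).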

Additional observations from a re-analysis of the deposited data

Results flagged for a closer look

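Dixon's test at 95% picked out an outlying library in 9 of the 85 sets of 4 values examined, where chance gives about 4.25 (1 in 20), and its ratio is the gap to the nearest value over the whole range of the set. For sta in DMSO samples this ratio was 0.836 and for RpS28b in DMSO samples it was 0.84. For RpL37a in DMSO samples it was 0.912, with DMSO 2 the low sample at 147 RPKM. For RpL24 in DMSO samples it was 0.907, with DMSO 1 the high sample at 131 RPKM. For RpS28-like, RpL37b and RpS19b in Que samples, and for RpL22-like and RpS10a in DMSO samples, it was 1.0, and each of these rests on 3 reads or fewer in a library. In each of these sets a single library had reads and the others had 0, which fixes the ratio at 1.0.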

How the results depend on the processing

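The median log2 fold change of the standard genes (0.16) lay between 0.12 with quantile normalization, where 71 genes were higher, and 0.19 with array weights, and between 0.12 and 0.24 with 1 sample left out. That of the paralogs (0.18) lay between 0.08 and 0.27 with 1 sample left out. The count of members higher at an unadjusted p under 0.05 (2) was 1 without a filter (1.49% of all genes) and 1 without the trend (1.71%). It was 4 with the length trend removed (2.08% of all genes) and 6 with median-of-ratios scaling (1.95%). Without replicate number 1 of both groups, added after seeing the data, it was 6 (1.83% of all genes). With array weights it was 29 (5.34% of all genes), and with 1 sample left out 0 to 26 (1.21 to 3.65%). With the replicate block the count was 15, against 3.57% of all genes, and no member had an adjusted p under 0.05 in any setting. In the labels, same-numbered samples share only the number. Correlations of same-numbered deviations over all genes were 0.227, 0.119, 0.0127 and 0.0292. Among the members they were 0.785, 0.304, 0.674 and 0.628, and each sample there correlated best with its own number. For DMSO 4 this was close, at 0.628 with Que 4 and 0.625 with Que 3. Over all genes the match did not hold for numbers 3 and 4. There Que 3 correlated with DMSO 4 at 0.148, and Que 4 with DMSO 3 at 0.0722, above the values for their own numbers. The match among the members is thus only a hint from the data and not from the design. At every number the Que sample had a larger share of reads on the members than the DMSO sample, and this order was not tested. The count of members lower was 0 in every setting. 

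Small estimates turned sign. With quantile normalization RpL23 and RpL27A were at -0.02 and RpS30 at -0.04. With the length trend removed RpL37A was at -0.01 and RpS15Ab at -0.0042. With array weights RpS15Ab was at -0.05 and RpL6 at 0.02. Without replicate number 1 of both groups RpL37A was at -0.02, RpS15Ab at -0.03 and RpL6 at 0.01. With 1 sample left out, RpL37A ranged from -0.19 to 0.19, RpS15Ab from -0.05 to 0.10, RpL6 from -0.13 to 0.03, RpL38 from -0.02 to 0.17 and RpL15 from -0.24 to 0.07. The difference in family share (percentage points, Que minus DMSO) ranged from -0.749 to 0.683 for RpL7-like, -1.29 to 0.956 for RpL24-like, -0.424 to 0.277 for RpL34a, -1.35 to 0.793 for RpLP0-like and -1.06 to 0.199 for RpS14b. The cause was not tested. Depth limits most the paralogs at or under 3 reads and RpS5b. It also bears on RpS15Ab, with 158 to 200 reads per library, so counting error is part of the spread of its share. The standard error of its log2 fold change was 0.12 in the main fit and 0.15 with voom.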
